A study of Mus musculus with 12 samples.

Results

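Regulators of G protein signaling (RGS proteins) were followed as 9 genes, Rgs1, Rgs2, Rgs3, Rgs4, Rgs10, Rgs12, Rgs14, Rgs16, and Rgs19, in cerebral vessels isolated from mice given LPS or PBS. The members were a list of symbols that leaves out Rgs5 and 11 other RGS genes, and no threshold on a measured value was applied. They were 9 of 21 RGS genes by symbol and 9 of 54119 genes with summed counts, and all 9 were among the 19150 genes that passed the filter on low counts. All mice were wild type C57BL6, 2 to 3 months old, and LPS was given intraperitoneally at 10 mg/kg. Vessels were taken after PBS or at LPS 15 min, LPS 30 min, or LPS 4 h, with 3 libraries a group, and each library pooled the vessels of 1 male and 1 female. How long after injection the PBS mice were killed was not stated. Vessels were cleared of meninges, homogenized, spun in dextran, and held on a mesh after the mice were perfused.

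RGS proteins bind the alpha subunit of an active heterotrimeric G protein and speed its GTP hydrolysis, which ends the signal of the receptor. Most act on the Gi and Gq classes. The small proteins of the R4 subfamily, here Rgs1, Rgs2, Rgs3, Rgs4, and Rgs16, consist of little more than the RGS domain, and some longer forms of Rgs3 carry other domains. The R12 subfamily holds Rgs10, Rgs12, and Rgs14, of which the latter pair also carry Ras-binding and GoLoco domains. Rgs19 belongs to the RZ subfamily. In vessels, RGS proteins are known for limiting the response of smooth muscle, endothelial cells, and leukocytes to vasoactive and chemotactic ligands.

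Depth was 18.3 to 25.9 M fragments per library. Levels are given as CPM, counts scaled to a common library size after TMM scaling (a factor per library that centres the bulk of the genes), and per transcript length as TPM where genes are compared with each other. TMM factors averaged 1.17 in PBS and 1.15, 1.04, and 0.717 in the LPS groups in order of time. TPM carries no such factor, so TPM values at 4 h sit lower against PBS than CPM values do, and with scaling to library size alone the median log2 fold change of all genes at 4 h was -0.71. A gene was called when edgeR's test for a change beyond 1.5-fold gave an adjusted p below 0.05, with the Benjamini-Hochberg adjustment made across every gene that passed the filter. The summed TPM of 8 endothelial markers was 5580 to 5810 in PBS, of 7 pericyte markers 1940 to 2090, and of 6 smooth muscle markers 3200 to 3220, against 78.2 to 83.8 for 7 microglial, 274 to 290 for 7 neuronal, and 13.1 to 18.2 for 8 neutrophil markers. All 82 markers of the 13 cell type lists had at least 1 count in the series.

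Rgs16 rose the most of the members and ended as the most abundant of them, 11.3-fold above PBS at 30 min and 66.3-fold at 4 h. Rgs1, hardly detected in PBS, rose 23.7-fold at 4 h. Rgs14 rose 2.15-fold at 15 min and stood at 1.01 times PBS at 30 min. At 4 h Rgs2 and Rgs12 rose 1.70-fold and 1.69-fold with TMM scaling, though with scaling to library size alone their log2 changes were 0.06 and 0.05 and not called. Rgs10 fell to 51.7% of PBS, and Rgs3, Rgs4, and Rgs19 were not called against PBS at any time. All comparisons with PBS share the same 3 PBS libraries.

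**Figure D1:**
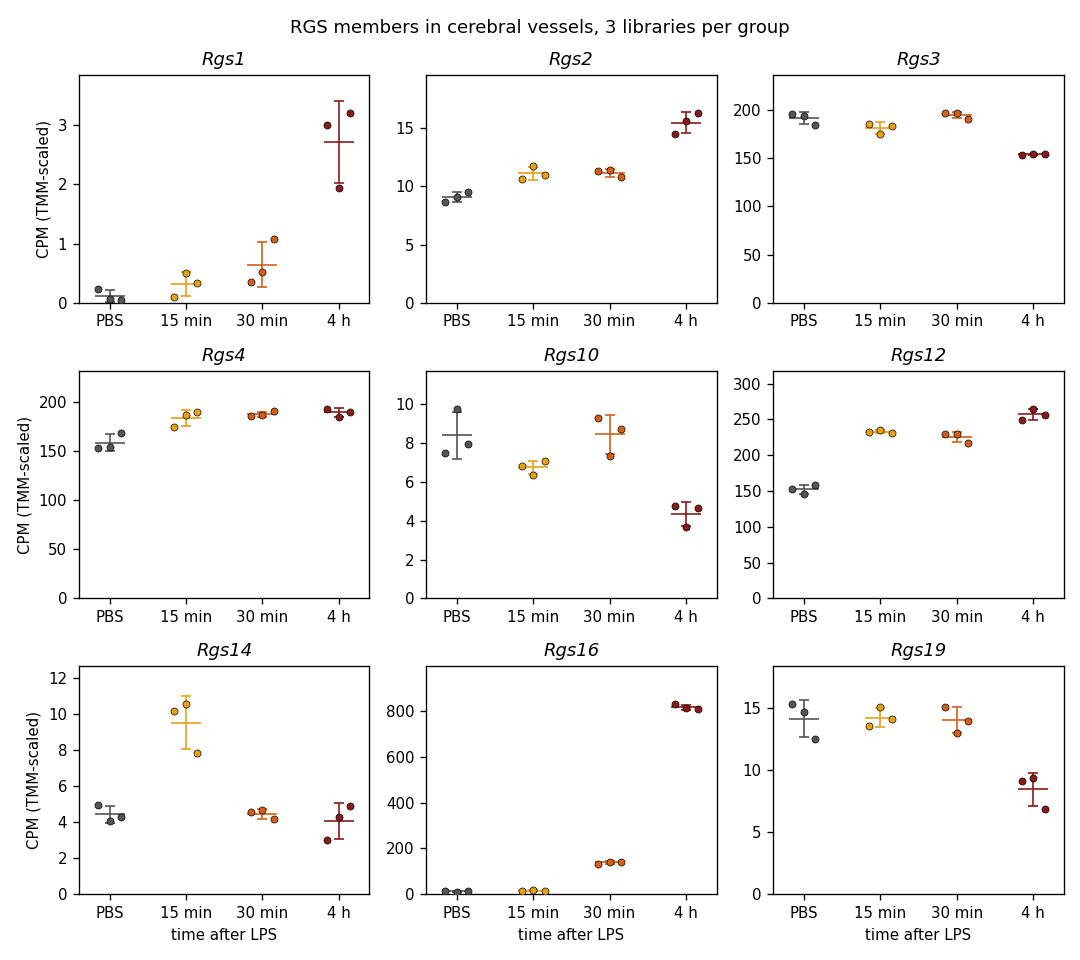
CPM after TMM scaling of each member in every library (points), with the mean and SD of 3 libraries per group (bar and whiskers), against time after LPS. Each panel has its own axis from 0. Rgs16 climbs from a mean of 12.3 in PBS to 817 at 4 h, Rgs14 stands high at 15 min alone, and Rgs10 and Rgs19 are lowest at 4 h.

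Of the 9 members, 1 was called at 15 min (Rgs14), against 4.25% of all genes tested, and 1 at 30 min (Rgs16), against 4.62%. At 4 h 5 were called, 4 higher and 1 lower, against 33% of all genes. By direction, 3.35% of all genes were called higher at 15 min, 3.8% at 30 min, and 19.1% at 4 h, and 0.898%, 0.815%, and 13.9% were called lower. The median log2 fold change of the members was 0.29, 0.24, and 0.26 in time order, and that of all genes was -0.0021, -0.010, and -0.0098. The libraries of the groups did not overlap for 6, 5, and 8 of the 9 members, and the same held for 49.3%, 46.7%, and 70.9% of all genes. At 15 min the median log2 change of 0.29 came with 7 of 9 values above 0, of which only that of Rgs14 passed the test.

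**Figure D2:**
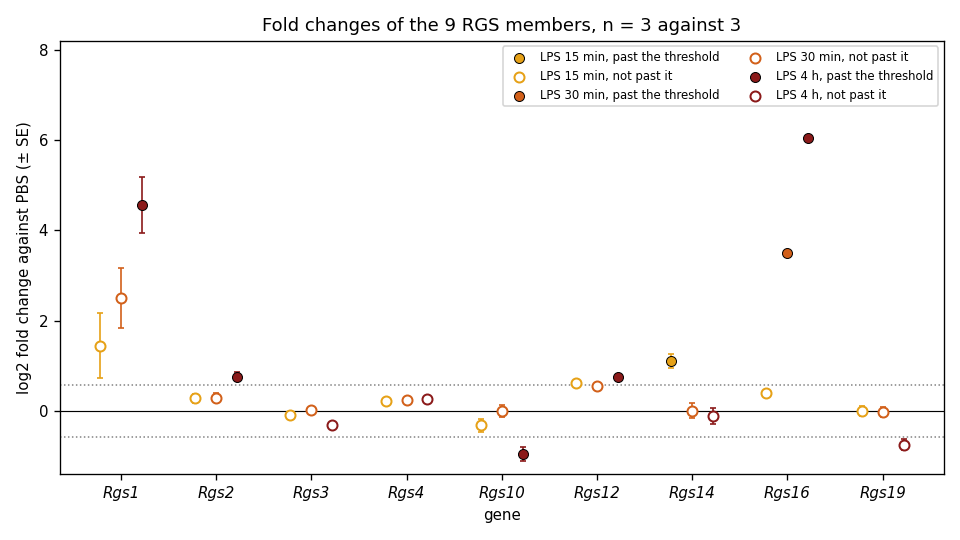
Log2 fold change against PBS with its SE for each member at each of the times, with n = 3 against 3 and the same 3 PBS libraries throughout. Filled points passed the test beyond 1.5-fold (dotted lines at 0.58 on the log2 scale), and open points did not, which leaves Rgs3, Rgs4, and Rgs19 with open points alone.

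Per unit length, the members of PBS vessels fell into separate levels. Rgs3 was highest at 112 ± 4.59 TPM (SD, n = 3), above Rgs4 (92.3 ± 3.63 TPM) and Rgs12 (88.6 ± 6.25 TPM), whose libraries overlapped. Rgs19 (24.3 ± 4.83 TPM) and Rgs10 (22.7 ± 3.95 TPM) overlapped as the next pair, and so did Rgs16 (9.08 ± 1.07 TPM) and Rgs2 (7.48 ± 1.49 TPM). Rgs14 (3.21 ± 0.366 TPM) and Rgs1 (0.160 ± 0.146 TPM) were the lowest and overlapped with no other member. The TPM of a gene sums all its annotated forms, also those that are not protein-coding. In PBS the Rgs3 forms annotated as retained introns, Rgs3-214, Rgs3-207, and Rgs3-209, held 16.7%, 14.8%, and 10.5% of its TPM. The protein-coding Rgs4-201 held 99.7% of that of Rgs4, and the protein-coding Rgs12-204 held 52.2% of that of Rgs12. At 15 min Rgs12 came first at 142 ± 10.2 TPM, above Rgs3 and Rgs4, and at 4 h Rgs16 came first at 317.5 ± 8.03 TPM with no overlap with Rgs12 at 90.6 ± 7.97 TPM. Rgs16 made up 2.52% of the summed mean TPM of the 9 members in PBS, 2.77% at 15 min, 19.5% at 30 min, and 58.5% at 4 h.

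**Figure D3:**
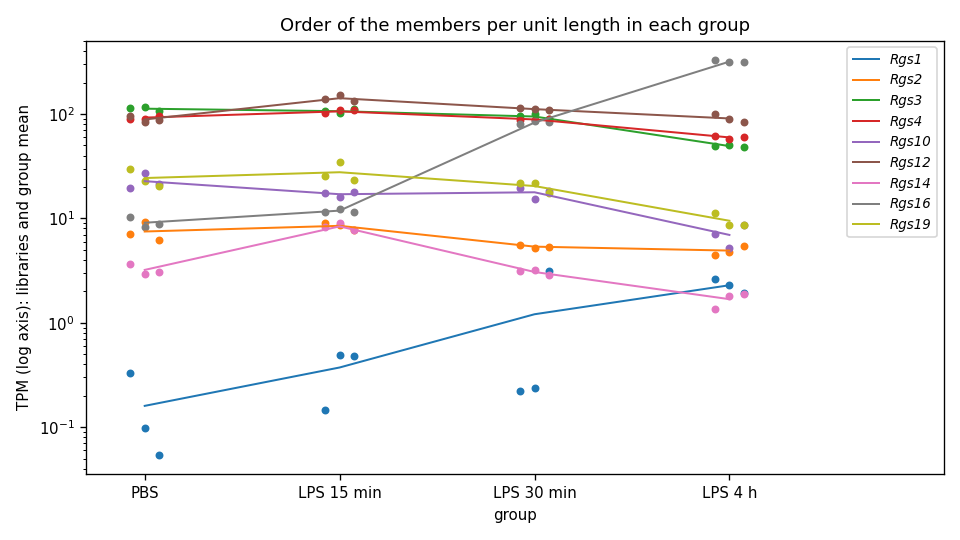
TPM of each member in every library (points) and the group mean (line) on a log axis, for PBS and the LPS groups. The Rgs16 line crosses from the sixth place in PBS to the first at 4 h, and Rgs1 and Rgs14 take the lowest places throughout.

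Among the R4 members, Rgs16 is a GTPase-activating protein for Gi and Gq alpha subunits whose gene is known to be inducible. It lies at chr1:153740349-153745468 on the plus strand (GRCm38) and has 1 annotated transcript. Its level was 13.8, 11.1, and 12.1 CPM in PBS, 15.8, 16.95, and 15.85 CPM at 15 min, 133, 143, and 141 CPM at 30 min, and 829, 812, and 810.2 CPM at 4 h. The ranges of the 4 groups were separate from each other and followed the order of time. The log2 fold change against PBS was 0.39 (SE 0.0645) at 15 min, which did not pass the test (edgeR adjusted p = 1), 3.50 (SE 0.0494, edgeR adjusted p = 2.09e-23) at 30 min, and 6.05 (SE 0.0476, edgeR adjusted p = 1.73e-29) at 4 h. It also rose between the LPS groups, by 3.10 on the log2 scale (edgeR adjusted p = 4.01e-22) from 15 to 30 min and by 2.55 (edgeR adjusted p = 1.19e-23) from 30 min to 4 h. These calls stood under all 10 alternative settings and without any single library. The antisense gene Gm28513 overlaps Rgs16, at 0.0127 CPM in PBS and 1.68 CPM at 4 h, and reads of the pair cannot be told apart without strand.

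RefSeq promoter windows were found for 7 of the 9 members, 11 windows in all. Those of Rgs16 and Rgs12 are shown, for the largest change and for a change in the estimated share of start sites. The 250 bases before the Rgs16 start (RefSeq, GRCm38.p6) span chr1:153740103-153740352, plus strand, written 5′ to 3′.
Rgs16 promoter: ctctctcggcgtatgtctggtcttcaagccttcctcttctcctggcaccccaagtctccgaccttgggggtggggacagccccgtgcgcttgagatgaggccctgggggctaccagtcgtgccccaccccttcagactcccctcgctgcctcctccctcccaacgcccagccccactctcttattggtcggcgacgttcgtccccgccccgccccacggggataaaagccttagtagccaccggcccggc
Both strands of the window were searched for the CRE, whose letters are TGACGTCA. The AP-1 site was read as TGANTCA. For Egr factors the letters were GCGNGGGCG, and the TATA box was read as TATAAA. The kappa-B and CArG motifs were searched by name. The window held no match to any of the 6, so it shows no capitals. Over all 32851 windows of this length the shares with a match were 1.55%, 6.75%, 4.70%, 12.4%, 7.25%, and 1.47% in that order. Of the 11 member windows, none held a CRE, kappa-B, or CArG match, 2 held Egr letters (Rgs2 and 1 of 3 of Rgs19), 3 held TATA letters (Rgs4 and both of Rgs3), and 1 held an AP-1 match (Rgs12).

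Rgs1, known for limiting chemokine receptor signaling in lymphocytes and macrophages, lies at chr1:144242296-144249242 on the minus strand. Its counts were 6, 2, and 1 in PBS, 3, 12, and 9 at 15 min, 8, 12, and 24 at 30 min, and 39, 29, and 47 at 4 h. These are the lowest counts of the members, and in counts and CPM the 4 h libraries lay above the other 9 libraries. In TPM they did not, as LPS 30 min replicate 3 had 3.16 TPM, above the 2.64, 2.28, and 1.94 TPM at 4 h. At 4 h it rose by 4.57 on the log2 scale (SE 0.617, edgeR adjusted p = 2.96e-06), and by 2.07 from 30 min to 4 h (SE 0.501, edgeR adjusted p = 0.00616). The first call stood under all 10 alternative settings, and the second was lost under 3 of them, with a correction for transcript length (edgeR adjusted p = 0.146) and under limma with 1 or 10 added (adjusted p = 0.0857 and 0.0908). At 30 min the log2 change of 2.50 (SE 0.668) missed the threshold, with an edgeR adjusted p = 0.0513. It passed without a filter on low counts (edgeR adjusted p = 0.0052), without PBS replicate 1 (3.45, edgeR adjusted p = 0.0232), without LPS 30 min replicate 1 (2.80, edgeR adjusted p = 0.0316), and without LPS 15 min replicate 1, which enters the shared spread (edgeR adjusted p = 0.036). At 15 min the value was 1.45 (SE 0.723, edgeR adjusted p = 0.788). Salmon gave most of the Rgs1 TPM to Rgs1-204 in PBS (100%), at 15 min (94.1%), and at 4 h (59.8% ± 21.2, SD, n = 3). At 30 min the share of this transcript was 9.31% ± 16.1. Rgs1-204 is annotated as subject to nonsense-mediated decay, and the Rgs1 TPM moves with that assignment.

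Neutrophil markers were higher at 4 h, as Rgs1 was, and lymphocyte markers gave calls in both directions. Of all genes 19.1% were called higher at that time and 13.9% lower. Of 8 neutrophil markers 5 passed the filter, and all 5 (Camp, Cxcr2, Retnlg, S100a8, and S100a9) were called higher. Their list summed to 568 to 589 TPM at 4 h, and Ly6g, Mpo, and Elane were at 0 in the PBS libraries. Of 6 T and NK cell markers tested, Trac was called higher and Cd3e lower (8.72 to 11.6 TPM in sum in PBS, 9.82 to 13 TPM at 4 h). Of 5 B cell markers, 1 (Cd79a) was called lower (20.8 to 22.5 TPM and 7.53 to 7.92 TPM). Their part in the Rgs1 value was not tested. In these bulk libraries fewer cells of a type and less RNA per cell cannot be told apart.

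Rgs2, a selective inhibitor of Gq signaling known for lowering vascular tone and blood pressure, lies at chr1:143999338-144004161 on the minus strand. It measured 8.69, 9.11, and 9.54 CPM in PBS, 10.65, 11.7, and 10.98 CPM at 15 min, 11.4, 11.4, and 10.8 CPM at 30 min, and 14.5, 15.6, and 16.3 CPM at 4 h. The LPS libraries lay above the PBS libraries at each time. It rose by 0.76 on the log2 scale at 4 h (SE 0.101, edgeR adjusted p = 0.0344), and the values of 0.29 at 15 and at 30 min did not pass the test. This call was lost under 7 of the 10 alternative settings. With scaling to library size alone the value was 0.06, where the median of all genes was -0.71, and with a correction for transcript length and under limma it was 0.28 (adjusted p = 1 in each). Without a filter on low counts (0.71, edgeR adjusted p = 0.19), with only the groups compared (0.73, edgeR adjusted p = 0.0827), and under DESeq2 (0.77, adjusted p = 0.311) the value stayed near that of TMM scaling. The call was also lost without PBS replicate 1 or 2 or LPS 4 h replicate 2 or 3 (edgeR adjusted p up to 0.1). Its TPM went the other way, from a mean of 7.48 in PBS to 4.91 at 4 h.

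Rgs3 and Rgs4 act on Gi and Gq alpha subunits and were among the 3 most abundant members in PBS, and Rgs4 is known from smooth muscle and neurons. Rgs3 (chr4:62559847-62704001, plus strand) measured 196, 194, and 185 CPM in PBS and 153, 155, and 154 CPM at 4 h. The groups did not overlap, yet the log2 change of -0.32 (SE 0.0321) lay inside the 1.5-fold limit. With scaling to library size alone it was -1.02 and called lower. Rgs4 (chr1:169741477-169747642, minus strand) measured 153, 154, and 169 CPM in PBS, 175, 187.5, and 190 CPM at 15 min, 186, 187, and 191 CPM at 30 min, and 194, 185, and 190.0 CPM at 4 h. Its log2 changes against PBS were 0.21, 0.24, and 0.26 in time order, none past the test, and library size alone turned the last to -0.45.

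Rgs10, the R12 member made of little beyond the RGS domain, is known from microglia and other myeloid cells, where it limits inflammatory gene expression. It lies at chr7:128373621-128418758 on the minus strand. It measured 7.49, 9.79, and 7.94 CPM in PBS, 6.82, 6.37, and 7.06 CPM at 15 min, 9.32, 7.32, and 8.72 CPM at 30 min, and 4.78, 3.66, and 4.65 CPM at 4 h. The 4 h libraries were the lowest of all 12. It fell by 0.95 on the log2 scale against PBS (SE 0.155, edgeR adjusted p = 0.0108) and by 0.96 from 30 min to 4 h (SE 0.157, edgeR adjusted p = 0.0121). Without PBS replicate 2 (edgeR adjusted p = 0.0652) or LPS 4 h replicate 2 (edgeR adjusted p = 0.0691) the first call was lost, and the second was lost without the latter library (edgeR adjusted p = 0.0744). Both were lost under the same 4 of the 10 alternative settings. The adjusted p of the first was 0.121 under DESeq2, 0.0868 with a correction for transcript length in edgeR, and 0.31 and 0.501 under limma with 1 and 10 added. That of the second was 0.159, 0.16, 0.504, and 0.818 in the same order. Of 7 microglial markers 4 (Gpr34, P2ry12, Sall1, and Siglech) were called lower at 4 h, against 13.9% of all genes. The list summed to 26.0 to 27.4 TPM. Other myeloid lists went the other way, with 5 of 5 neutrophil markers tested and 3 of 6 perivascular macrophage markers called higher, against 19.1% of all genes. The part of these cell types in the Rgs10 value was not tested.

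Rgs12 lies at chr5:34949445-35039644 on the plus strand and carries PDZ and PTB domains in its long form besides those named above. Its level was 153, 146, and 159 CPM in PBS, 233, 235, and 231 CPM at 15 min, 229, 229.5, and 218 CPM at 30 min, and 250, 265, and 256 CPM at 4 h. All 9 LPS libraries lay above all PBS libraries. The log2 change was 0.61 (SE 0.0323, edgeR adjusted p = 0.648) at 15 min and 0.56 (SE 0.0325, edgeR adjusted p = 1) at 30 min, both at the 1.5-fold limit, and it rose by 0.75 (SE 0.0332, edgeR adjusted p = 1.29e-05) at 4 h. With scaling to library size alone the 4 h value was 0.05 and was not called. Without the fold limit the 15 min value passed the test (edgeR adjusted p = 5.39e-13).

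The Rgs12 transcripts did not change alike. GENCODE places 2 of those tested at an upstream first exon (starts 34949445 and 34949448) and 3 at a downstream one (starts 34999057 to 34999184), 49.6 kb further along the gene. The RefSeq windows of 250 bases before each RefSeq start (GRCm38.p6, plus strand, 5′ to 3′) span chr5:34949198-34949447 and chr5:34998828-34999077. Capitals mark AP-1 letters, which begin 22 bases before the RefSeq downstream start (34999078, also the GENCODE start of Rgs12-203) and so overlap the first bases of Rgs12-204, which starts at 34999057.
Rgs12 upstream promoter: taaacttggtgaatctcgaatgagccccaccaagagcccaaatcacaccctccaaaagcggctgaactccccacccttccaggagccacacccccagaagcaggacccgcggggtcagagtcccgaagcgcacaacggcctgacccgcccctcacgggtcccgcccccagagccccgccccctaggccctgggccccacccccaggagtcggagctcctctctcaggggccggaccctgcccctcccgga
Rgs12 downstream promoter: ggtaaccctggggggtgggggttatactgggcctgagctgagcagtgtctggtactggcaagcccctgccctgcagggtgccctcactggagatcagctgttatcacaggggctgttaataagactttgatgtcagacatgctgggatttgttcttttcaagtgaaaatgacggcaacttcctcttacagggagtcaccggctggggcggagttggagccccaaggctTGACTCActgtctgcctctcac
The upstream window had a GC content of 68.4% and held no match to any of the motifs, and the downstream window had 55.6%.

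Rgs12-204, the main transcript of the downstream start, measured 101, 89.2, and 102 CPM in PBS, 178, 168, and 172 CPM at 15 min, 173, 179, and 163 CPM at 30 min, and 188, 201, and 195 CPM at 4 h. It was called higher at each time, by 0.83 (SE 0.0557, edgeR adjusted p = 0.0148), 0.82 (SE 0.0557, edgeR adjusted p = 0.0117), and 1.00 (SE 0.0559, edgeR adjusted p = 2.91e-05) on the log2 scale. Rgs12-201, the long form of the upstream start, measured 20.9, 25.8, and 34.8 CPM in PBS, 16.2, 24.9, and 19 CPM at 15 min, 17.9, 12.5, and 17.7 CPM at 30 min, and 6.02, 11.5, and 6.18 CPM at 4 h. It fell by 1.78 on the log2 scale at 4 h (SE 0.300, edgeR adjusted p = 0.00463) and was not called earlier. The upstream start held 11.2%, 14%, and 14.4% of the TPM of both starts in PBS, 5.14%, 7.43%, and 6.40% at 15 min, 5.56%, 4.81%, and 5.56% at 30 min, and 1.58%, 2.93%, and 2.00% at 4 h. This share leaves out tested forms that start elsewhere, such as Rgs12-202, and uses no scaling between libraries. Each LPS group lay below PBS without overlap. An exact two-sided permutation test gave p = 0.1 at each time, the smallest that 3 against 3 allows. The 15 min call of Rgs12-204 was lost without LPS 15 min replicate 1 and the 30 min call without LPS 30 min replicate 2, and with scaling to library size alone its calls at 30 min and 4 h were lost while that of Rgs12-201 stood. The transcripts share most exons, so Salmon split common reads between them by estimate.

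Rgs14, known from hippocampal neurons of the CA2 area and from lymphoid cells, lies at chr13:55369732-55384687 on the plus strand. It measured 4.95, 4.05, and 4.28 CPM in PBS, 10.2, 10.53, and 7.85 CPM at 15 min, 4.55, 4.65, and 4.16 CPM at 30 min, and 3.01, 4.26, and 4.92 CPM at 4 h. The 15 min libraries stood above the other 9. It rose by 1.11 on the log2 scale at 15 min (SE 0.158, edgeR adjusted p = 0.0094) and fell by 1.09 from 15 to 30 min (SE 0.161, edgeR adjusted p = 0.0114). The 15 min call was lost under DESeq2 (adjusted p = 0.106) and without PBS replicate 2, LPS 15 min replicate 1, or LPS 15 min replicate 2 (edgeR adjusted p up to 0.0612). The fall to 30 min was lost under DESeq2 and limma and without LPS 15 min replicate 1 or 2 or LPS 30 min replicate 3 (edgeR adjusted p up to 0.067).

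Salmon placed much of this rise in Rgs14-202, which is annotated as a retained intron and starts at 55379169 inside the gene. Its counts were 0 in every PBS library, 119, 144, and 114 at 15 min, 56, 56, and 52 at 30 min, and 18, 22, and 0 at 4 h. Its mean of 4.81 CPM at 15 min was at least 130-fold higher than 3 counts summed over the PBS libraries would give, and the means at 30 min (2.43 CPM) and 4 h (0.931 CPM) were at least 65.7-fold and 25.2-fold higher, bounds that cover counting error only. It was called at each time (edgeR adjusted p = 0.0281, 0.0343, and 0.0123), but the 15 and 30 min calls were lost without any 1 library of the groups compared. The protein-coding Rgs14-201 had 132, 120, and 112 counts in PBS and 179, 104, and 87 at 15 min. It had 49, 50, and 41 counts at 30 min, when the gene stood at 1.01 times PBS, and 21, 41, and 72 at 4 h. Rgs14-201 was called at no time. These forms overlap, so Salmon split common reads between them by estimate, and the bounds above leave out the error of that split. Of all retained-intron transcripts tested, 0.919% were called higher at 15 min, against 1.02% of protein-coding ones.

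The sum of the neuronal markers stood higher in the same 15 min libraries. Of 7 tested, 2 (Slc17a7 and Syt1) were called higher there, against 3.35% of all genes, and the median log2 change of the list was 0.28. The markers summed to 274 to 290 TPM in PBS, 354 to 366 TPM at 15 min, 201 to 203 TPM at 30 min, and 90.6 to 94.9 TPM at 4 h. Their part in the Rgs14 value was not tested.

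**Figure D4:**
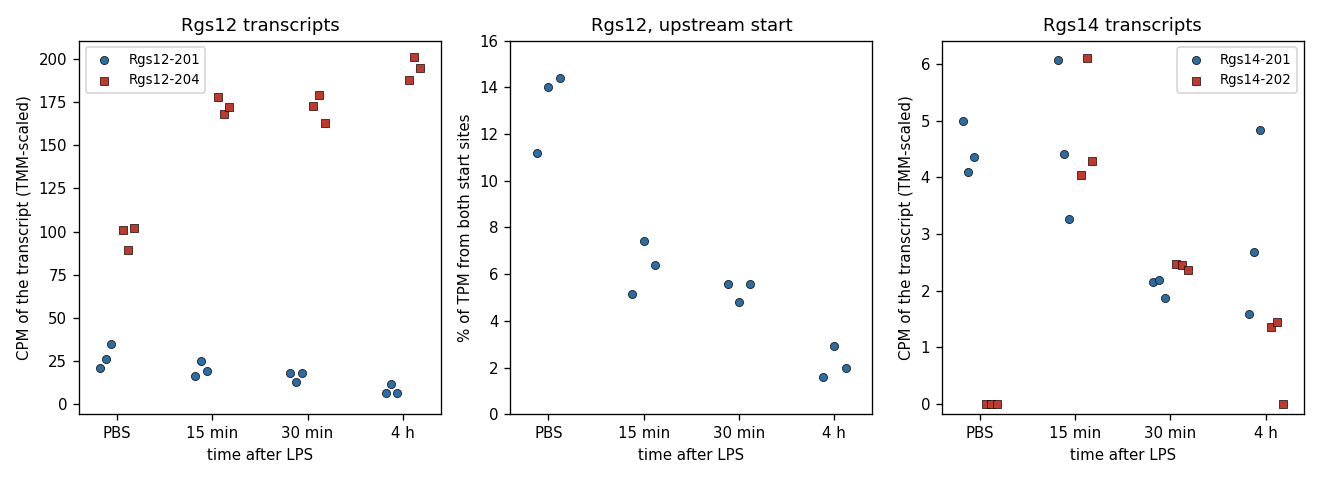
Left, CPM of the Rgs12 transcripts of the upstream (Rgs12-201) and downstream (Rgs12-204) start in every library. Middle, percent of the TPM of both starts that lay at the upstream one. Right, CPM of the protein-coding Rgs14-201 and the retained-intron Rgs14-202. The upstream share of Rgs12 runs from 11.2% to 14.4% in PBS and from 1.58% to 2.93% at 4 h, and Rgs14-202 is at 0 in PBS.

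Across the members, 73 transcripts were listed and 34 passed the filter. Of these 2 were called at 15 min, 3 at 30 min, and 7 at 4 h, against 1.09%, 1.64%, and 18% of all 49421 transcripts tested. Besides those above, they were Rgs16-201, Rgs2-202 (higher by 0.82 at 4 h), Rgs10-201 (lower by -1.03), and Rgs3-205. Rgs3-205, a protein-coding form that starts at 62619582 inside the gene, went from 99.8, 77.2, and 82.3 CPM in PBS to 49.3, 45.0, and 40.8 CPM at 4 h, and fell by 0.94 on the log2 scale (SE 0.145, edgeR adjusted p = 0.0247). Its share of the Rgs3 TPM was 30.3% ± 4.48 (SD, n = 3) in PBS and 19.6% ± 1.96 at 4 h.

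Rgs19, also called GAIP, acts on Gi alpha subunits and is tied to trafficking. It lies at chr2:181688419-181693977 on the minus strand. It measured 15.3, 14.6, and 12.5 CPM in PBS, 13.5, 15.0, and 14.1 CPM at 15 min, 15.1, 13, and 13.95 CPM at 30 min, and 9.10, 9.32, and 6.90 CPM at 4 h. The 4 h libraries were below all others, but the log2 change of -0.75 (SE 0.121, edgeR adjusted p = 0.0817) did not pass the test beyond 1.5-fold. It passed without PBS replicate 3 (edgeR adjusted p = 0.026) or LPS 4 h replicate 2 (edgeR adjusted p = 0.0401), and with scaling to library size alone (-1.45).

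That scaling changed which members were called at 4 h, not how many. It gave 2 higher (Rgs1 and Rgs16) and 3 lower (Rgs3, Rgs10, and Rgs19), in place of 4 higher and 1 lower with TMM factors. Under library size alone 55.0% of all genes were called, against 33% with TMM factors. Of those 10523 genes 1919 were higher, and the median log2 fold change of all genes was -0.71. Between LPS groups, 2 members were called from 15 to 30 min (Rgs16 higher and Rgs14 lower), against 4.76% of all genes, and 3 from 30 min to 4 h (Rgs16 and Rgs1 higher and Rgs10 lower), against 28.9%.

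Chromosome 1 carries 11 of the RGS genes, 4 of them members, and the neighbours of members there had these values. Rgs8, which ends 40.0 kb before Rgs16 on the same strand, measured 7.21 CPM in PBS and 9.35 CPM at 4 h, with a log2 change of 0.38 that did not pass the test. Rgs5, a marker of pericytes 45.7 kb from Rgs4, measured 2090 CPM in PBS and 2180 CPM at 4 h (log2 change 0.06, not called). Rgs1 and Rgs2 lie 238 kb apart, with Rgs13 between them at 0.0112 CPM in PBS and 0 in the LPS libraries.

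The 12 RGS genes that are no members gave 10 tested, beside shares of all genes called of 4.25%, 4.62%, and 33% in time order. Rgs9 and Rgs11, R7 subfamily members known from neurons and retina, were called higher at 15 min, by 0.83 (SE 0.0546, edgeR adjusted p = 0.000618) and 0.78 (SE 0.0461, edgeR adjusted p = 0.00113) on the log2 scale, from 24.4 to 43.2 CPM and from 42.9 to 73.4 CPM. Rgs22 was called higher at 30 min by 1.36 (SE 0.213, edgeR adjusted p = 0.00382), from 2.27 to 5.86 CPM. At 4 h 0 of the 10 were called by edgeR or by DESeq2, and 3 had an unadjusted p below 0.05. The values farthest from 0 there were those of Rgs18 (-1.02), Rgs22 (0.93), and Rgs20 (0.85).

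**Figure D5:**
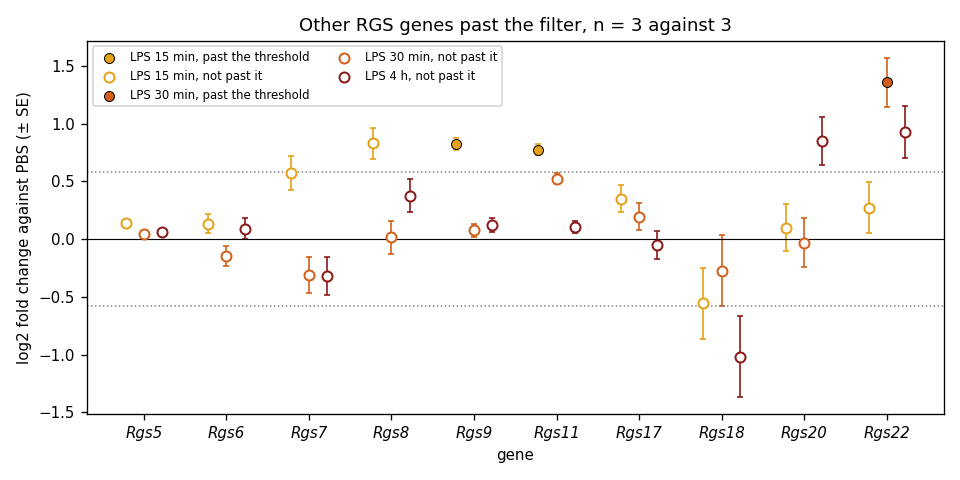
Log2 fold change against PBS with its SE for the 10 RGS genes outside the member list that passed the filter, at each of the times (n = 3 against 3). Filled points passed the test beyond 1.5-fold (dotted lines at 0.58): Rgs9 and Rgs11 at 15 min and Rgs22 at 30 min.

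G protein subunits gave calls at 4 h, when 33% of all genes were called, against 4.25% at 15 min and 4.62% at 30 min. RGS proteins speed GTP hydrolysis by the alpha subunits, and most act on the Gi and Gq classes. Of 15 alpha subunits tested 0 were called at 15 or 30 min by edgeR or by DESeq2 (0 and 1 with an unadjusted p below 0.05), and at 4 h 2 were higher and 1 lower. Gna13, a subunit outside the Gi and Gq classes, rose by 2.37 (SE 0.0392, edgeR adjusted p = 2.74e-22), from 56.7 to 294 CPM, and Gna11, a Gq class subunit, fell by 1.88 (SE 0.0384, edgeR adjusted p = 1.09e-19), from 152 to 41.5 CPM. The other was Gnai3, a Gi class subunit. Of 15 beta and gamma subunits 0 were called before 4 h by either tool, and 3 were higher and 3 lower at 4 h, with Gng12 at 2.01 (65.8 to 265 CPM) and Gnb4 at 1.66 (61.7 to 195 CPM) the largest changes. Of 11 partners of RGS proteins tested, with 0 called before 4 h, Gpsm2 rose by 0.97 and Gipc1, which binds Rgs19, fell by 0.75. DESeq2 called neither (adjusted p = 0.112 and 0.111), and with scaling to library size alone Gpsm2 stood at 0.27 and was not called.

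Receptors upstream changed in both directions. The shares of all genes called were 4.25%, 4.62%, and 33% in time order. Of 19 Gi-coupled receptors 1 was lower at 15 min (Aplnr, the apelin receptor, at -1.58), 2 were higher and 2 lower at 30 min (C5ar1, the C5a receptor, at 1.74, and Aplnr at -1.80 had the largest changes), and 7 were higher and 5 lower at 4 h. Hcar2, the niacin receptor, rose from 1 count over the PBS libraries to 172 over those at 4 h, a scaled ratio of 333 with an exact 95% interval of 59.0 to 13200 for counting error. Fpr2, a formyl peptide receptor of myeloid cells, rose by 6.29 on the log2 scale from 0.229 to 18.4 CPM. Of 19 Gq-coupled receptors 0 were called at 15 min by edgeR or DESeq2 (3 with an unadjusted p below 0.05), 2 were higher at 30 min, among them P2ry2 at 0.99, and 8 were higher and 2 lower at 4 h, led by Avpr1a (4.18, from 0.345 to 6.27 CPM) and Bdkrb1 (3.37, from 0.463 to 4.81 CPM). Of 20 effectors 1 was higher at 15 min (Kcnj9, a GIRK channel subunit, at 0.82) and 4 were lower at 4 h, with Adcy9 at -1.75 and Plcb3 at -1.37 the largest changes.

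The other cell type lists moved as follows at 4 h against PBS. At that time 19.1% of all genes were called higher and 13.9% lower, and at 15 min 0.898% were called lower. Of 8 endothelial markers 6 were lower and Cdh5 was higher (1240 to 1280 TPM in sum), of 7 pericyte markers 2 were lower (795 to 801 TPM), and of 6 smooth muscle markers 0 were called at 4 h by edgeR or DESeq2 (1560 to 1610 TPM) while 3 (Acta2, Cnn1, and Myh11) were lower at 15 min. Higher were 3 of 6 perivascular macrophage markers (132 to 147 TPM in PBS, 112 to 123 TPM at 4 h), 3 of 6 astrocyte markers (263 to 270 and 305 to 337 TPM), and 1 of 5 platelet markers (22.9 to 24.5 and 17 to 24.7 TPM). Lower were 2 of 5 oligodendrocyte (261 to 272 and 180 to 193 TPM), 2 of 5 fibroblast (219 to 229 and 101 to 109 TPM), and 2 of 7 neuronal markers. At 4 h DESeq2 called 7 endothelial, 1 pericyte, 3 perivascular macrophage, and 1 astrocyte markers. It called 0 platelet, 1 oligodendrocyte, 2 fibroblast, and 1 neuronal markers, beside 27.3% of all genes.

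Over the 12 libraries, the genes with a mean of at least 1 CPM whose log2 CPM followed a member most closely were sought among 16306. For Rgs16 they included Cebpb (Pearson r = 0.999), a transcription factor of acute inflammation, and Gadd45g (r = 0.997). For Rgs1 they were Snap23 (r = 0.972), Rabgef1 (r = 0.971), and Il10ra (r = 0.970), a chain of the IL-10 receptor. For Rgs14 they were Nalcn (r = 0.981), a sodium leak channel of neurons, Clcn1 (r = 0.965), and Ank3 (r = 0.961). The 12 points fall into 4 groups, so such an r describes the order of the groups and little else. Among members, Rgs3 and Rgs10 were the most alike at r = 0.919, and Rgs2 and Rgs3 the farthest opposed at r = -0.879.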

How the data were processed

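RNA of cerebral vessels was measured in 12 libraries (SMART-Seq v4, Nextera XT, no strand). Per the labels, the authors ran Salmon 1.2.1 on GRCm38.p6, imported the estimates with tximport, and normalized them with DESeq2. The deposited estimated counts are fragments per transcript. The deposited TPM values are scaled for transcript length. The deposited gene table is a normalized signal, which the authors divided by size factors and length factors.

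Of 140948 transcripts 139852 joined GENCODE M21, and counts were summed to genes and rounded. In edgeR 4.0.16 (R 4.3.3), filterByExpr (count 10, total 15, share 0.7), TMM, glmQLFit over all 12 libraries, and glmTreat (0.58 on the log2 scale, or 1.5-fold) were used. Each SE was taken as |log2 fold change| over the root of the F statistic. On simulated data (seed 11) the script was checked for known changes. Libraries of a group differed by more than counting noise (chi-square over df 2.21 to 2.87). Same-numbered libraries did not deviate together (r -0.0672 to 0.0516 over 18 pairs).

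Named were all 9 members, per list the 2 largest called changes with at least 1 CPM, and for the 3 members of largest change the 3 genes most like them, of which 1 is not reported here. Members and lists (7 of the pathway, 13 of cell types) were chosen with earlier results of these data known. Alternatives were DESeq2 1.42.0, limma 3.58.1 on the gene table with 1 or 10 added, RLE factors, library size only, no filter, no fold limit, a transcript length offset, only the groups compared, a replicate block, and leaving out each library.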

Additional observations from a re-analysis of the deposited data

Results flagged for a closer look

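For 4 members LPS groups of different times differed by a test of that difference itself (edgeR, adjusted over all genes). PBS was not part of that contrast, though the PBS libraries entered the shared spread, the scaling factors, and the filter. From 15 to 30 min Rgs16 differed by 3.10 on the log2 scale (adjusted p = 4.01e-22) and Rgs14 by -1.09 (adjusted p = 0.0114). From 30 min to 4 h Rgs16 differed by 2.55 (adjusted p = 1.19e-23), Rgs1 by 2.07 (adjusted p = 0.00616), and Rgs10 by -0.96 (adjusted p = 0.0121). Of 10 alternative settings, the Rgs14 and Rgs1 differences each lost their call under 3 and the Rgs10 difference under 4, while the Rgs16 differences kept theirs. Groups of 3 libraries were not tested for single outliers.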

How the results depend on the processing

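Of 718 values of single members under 10 other settings or without 1 library of the groups compared, none of a called gene changed sign, 36 lost their call, 26 gained one, and 56 that were called under neither fit changed sign. The number of members called changed as follows. DESeq2 called 0 at 15 min, 3 at 4 h, 1 from 15 to 30 min, and 2 from 30 min to 4 h. It called 3.03%, 27.3%, 3.32%, and 23.4% of all genes in that order. The transcript length offset called 3 at 4 h (31.2% of all genes) and 1 from 30 min to 4 h (27.1%). Limma on the gene table, with 1 or with 10 added, called 3 at 4 h and 1 in each comparison between LPS groups. Of all genes it called 22.5%, 1.83%, and 19.3% there with 1 added, and 20.3%, 1.63%, and 17.4% with 10. Without a filter 2 were called at 30 min (3.04% of all genes) and 4 at 4 h (20.4%). With only the groups compared 4 were called at 4 h (34.6%). Library size only called 5 from 30 min to 4 h, against 46.6% of all genes. Without the fold limit 6, 5, and 8 were called against PBS, 3 from 15 to 30 min, and 7 from 30 min to 4 h, against 38.6%, 36.9%, 68.5%, 37.4%, and 65.3% of all genes. In each case the cause was not tested, except that dropping the fold limit allows smaller changes. Leaving out 1 library gave 0 to 1 members at 15 min, 1 to 2 at 30 min, 3 to 6 at 4 h, 1 to 2 from 15 to 30 min, and 2 to 3 from 30 min to 4 h. It gave 0 to 1, 1 to 2, and 5 to 8 transcripts in time order. Library numbers did not pair the samples. With the number as a block, the members called stayed 1, 1, 5, 2, and 3, and 1 transcript in place of 2 was called at 15 min (Rgs14-202 was lost). Of 20 named changes in the other RGS genes and pathway lists, 13 kept their call in all their fits and 7 lost it in some, Kcnj9 in 7 fits, Gpsm2 in 5, Rgs22 in 3, Rgs11 and Gipc1 in 2, and Aplnr at 15 and at 30 min in 1. Rgs1 had 9 counts over the PBS group, so its values against PBS are limited by depth.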
